A study of Mus musculus with 4 samples.

Results

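Superoxide dismutases convert superoxide, the first product when oxygen takes up a single electron, into hydrogen peroxide, and catalase, glutathione peroxidases and peroxiredoxins remove the peroxide. Transcript levels of 10 mouse genes of this chain were followed: the superoxide dismutases Sod1, Sod2 and Sod3, the peroxide-removing enzymes Cat, Gpx1, Gpx3, Gpx4 and Prdx1, and Txnrd1 and Nqo1, which keep thioredoxin and quinones reduced. They were taken by symbol from a table of 41288 genes, and all 10 were found. The rule for taking a gene was its symbol, not a measured value, though the set was chosen with earlier results of these data known. In the table's positions, read as GRCm38, Sod1 lies at chr16:90220742-90226324, Sod2 at chr17:13007839-13018119 and Sod3 at chr5:52363804-52369738. Cat lies at chr2:103453904-103485153, Gpx1 at chr9:108339080-108340342, Gpx3 at chr11:54902854-54910382, Gpx4 at chr10:80047166-80056439 and Prdx1 at chr4:116685599-116700000. Txnrd1 lies at chr10:82833951-82897724 and Nqo1 at chr8:107388225-107403205. All are on the plus strand except Cat and Nqo1, and all values are for the whole gene model.

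The cells were MC3T3-E1, a wild-type pre-osteoblastic line from mouse skull, and RNA sequencing gave 4 libraries, 1 per group. In the first group the culture medium was replaced by conditioned medium, in which PC-3 cells (human prostate cancer) had grown, and the cells were also placed under tensile strain of 2500 microstrain and 0.5 Hz for 1 h per day. The second received conditioned medium alone, the third received strain alone, and the control received neither. All were grown in DMEM with fetal bovine serum and antibiotics. The length of treatment and the time of harvest are unknown from the labels, no group received medium conditioned by other cells, and the data come from a single line, so the values describe these cultures only. The deposited columns carry short codes. The code for conditioned medium was assigned by elimination, and if it stood for the strained cells the conditioned-medium and strain libraries would trade places, which leaves conditioned medium plus strain against control as it is.

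Libraries held 10007546 to 10997085 counts. Of 12 osteoblast-lineage markers, 9 had at least 1 RPKM (reads scaled to gene length and library total) in every library, and the list summed to 7984 to 8912 RPKM. Alpl, Bglap and Ibsp, genes of the maturing osteoblast, were under 1 RPKM. Within the list, Spp1 and Postn, genes of matrix proteins, and Dmp1, a gene of mineralising cells, differed between libraries. Spp1 had 3412 RPKM with conditioned medium plus strain, 3455 RPKM with conditioned medium, 2338 RPKM with strain and 1223 RPKM in the control. Postn had 2170 RPKM with conditioned medium plus strain, 2095 RPKM with conditioned medium, 3711 RPKM with strain and 4735 RPKM in the control. Dmp1 had 5.29 RPKM with conditioned medium plus strain, 5.30 RPKM with conditioned medium, 41.2 RPKM with strain and 10.6 RPKM in the control. Of the fat, endothelial and epithelial lists no gene reached 1 RPKM, with Adipoq, Lep, Epcam and Krt18 at 0 counts in all libraries. The muscle list summed to 4.18 to 5.56 RPKM, with Myod1 and Myog at 0 counts, Des at 2.82 to 3.89 RPKM and Acta1 at 0.827 to 2.14 RPKM. The macrophage and osteoclast list summed to 30.8 to 38.5 RPKM, with Ptprc at 0 counts, Lyz2 at 24.2 to 30.7 RPKM and Ctsk at 6.07 to 6.90 RPKM. The chondrocyte list summed to 20.3 RPKM with conditioned medium plus strain, 26.1 RPKM with conditioned medium, 30.6 RPKM with strain and 35.1 RPKM in the control. Most of each sum was Sox9, at 19.7, 25.3, 28.2 and 34.3 RPKM in the same order. Col2a1 passed 1 RPKM only with strain, at 2.37 RPKM, and Acan, Col9a1 and Matn1 stayed under 1 RPKM. The ribosomal RNA gene Rn18s-rs5 took 3.36% of the counts with conditioned medium plus strain, 2.12% with conditioned medium, 2.80% with strain and 1.52% in the control. The part of these marker and ribosomal differences in the results was not tested. In a bulk library, fewer cells of a kind and less RNA per cell cannot be told apart.

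The superoxide dismutases differ in place and metal. Sod1 is a copper and zinc enzyme of the cytosol, Sod2 a manganese enzyme of the mitochondrial matrix, and Sod3 a secreted copper and zinc enzyme. Catalase sits in peroxisomes. Gpx1, Gpx3, Gpx4 and Txnrd1 carry selenocysteine, an amino acid inserted at an in-frame TGA that would otherwise end translation. In bone-forming cells these enzymes are known as a defence against oxidative stress, which hampers the maturing of osteoblasts.

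The stretches around the selenocysteine codons are shown because that codon is the catalytic residue these enzymes share. They come from the GENCODE M21 transcripts on GRCm38, plus strand, 5′ to 3′, with the codon in capitals. Codon numbers are those of the transcripts Gpx1-201, Gpx3-201, Gpx4-201 and Txnrd1-201, and a transcript with another start codon would give another number. The codon is number 47 in Gpx1 (chr9:108339451-108339453), 73 in Gpx3 (chr11:54907256-54907258), 129 in Gpx4 (chr10:80054737-80054739) and 498 in Txnrd1 (chr10:82896037-82896039). In Gpx1, Gpx3 and Gpx4 it lies within the reading frame, and in Txnrd1 it is the last codon but 1 before the stop.
Gpx1: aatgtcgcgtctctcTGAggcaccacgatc
Gpx3: aacgtagccagctacTGAggtctgacagac
Gpx4: aacgtggcctcgcaaTGAggcaaaactgac
Txnrd1: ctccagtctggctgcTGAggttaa

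The promoters of Sod2 and Sod1 are shown as a pair because the level of Sod2 relative to Sod1 differed between the media. Each holds 250 bases before and 50 after the RefSeq start on GRCm38.p6. Sod2 is at chr17:13007589-13007888 and Sod1 at chr16:90220512-90220811, both on the plus strand. Capitals mark the GC box GGGCGG on either strand, of which each promoter holds 4, those of Sod1 in 2 overlapping pairs, and in Sod2 also 1 match to the STAT-type motif TTCCNNGAA.
Sod2: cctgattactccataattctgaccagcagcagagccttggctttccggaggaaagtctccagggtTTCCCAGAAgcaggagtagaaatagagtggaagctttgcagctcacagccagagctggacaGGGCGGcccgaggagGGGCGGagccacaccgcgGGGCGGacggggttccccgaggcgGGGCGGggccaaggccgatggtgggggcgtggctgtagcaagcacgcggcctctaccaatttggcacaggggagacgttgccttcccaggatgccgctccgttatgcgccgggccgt
Sod1: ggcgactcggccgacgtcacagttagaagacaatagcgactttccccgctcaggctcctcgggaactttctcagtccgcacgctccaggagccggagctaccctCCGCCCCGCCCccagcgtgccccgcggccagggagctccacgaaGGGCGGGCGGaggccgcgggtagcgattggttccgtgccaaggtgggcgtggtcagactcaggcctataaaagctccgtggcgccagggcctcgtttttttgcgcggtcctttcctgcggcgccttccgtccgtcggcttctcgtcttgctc

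Among 32851 mouse promoters of the same length, 35.7% held a GC box and 5.49% held at least 4, while 4.81% held TTCCNNGAA. Promoters were matched for 9 of the 10 genes, 14 promoters in all, and Sod3 had none in the table used. The GC box occurred in 11 of the 14, and TTCCNNGAA in 2, those of Sod2 and a promoter of Txnrd1. The antioxidant response element core TGACNNNGC occurred in 3 of the 14, 1 each of Prdx1, Sod1 and Txnrd1, against 12.4% of all promoters. The NF-kappaB-type motif, GGGA and CC with any 4 bases between them, was found in 4 of the 14, of Cat, Gpx1 and Gpx4 (20.7% of all promoters), and the AP-1 motif TGANTCA in 1, of Prdx1 (7.81%). The stretch ggggttcccc in the Sod2 promoter shown differs from the NF-kappaB-type motif only by a G in place of its A. Forms with that G were not searched. The promoters of a gene can overlap, so they are not separate cases. Both strands were searched, and a match is a match of letters, not a bound site. Bases outside these promoters were not searched, so a gene without a match may still have one elsewhere.

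Sod2 was the only gene of the 10 with a large difference between libraries. It had 99.1 RPKM (3792 counts) with conditioned medium plus strain, 100.1 RPKM (4082 counts) with conditioned medium, 37.5 RPKM (1538 counts) with strain and 36.2 RPKM (1524 counts) in the control. Both libraries with conditioned medium were high and both without it were low, with or without strain. A fold here is the ratio of a gene's count shares, and its bracketed 95% interval covers counting error only, since reads copied by PCR are not independent molecules and a group of 1 library has no replicate check. No test was made. The Sod2 fold of conditioned medium plus strain over control was 2.73 (2.58 to 2.90), that of conditioned medium plus strain over strain 2.64 (2.49 to 2.80), and that of conditioned medium over control 2.76 (2.60 to 2.93). Between the conditioned-medium libraries with and without strain it was 0.989 (0.946 to 1.03), and between strain and control 1.04 (0.964 to 1.11).

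Counted from the highest, Sod2 ranked 37 of 11597 genes with at least 1 RPKM and 30 counts in conditioned medium plus strain over control. It ranked 28 of 11529 in conditioned medium plus strain over strain and 38 of 11628 in conditioned medium over control. Without a difference in medium its rank was far from either end, 5195 of 11501 for strain in conditioned medium and 3634 of 11602 for strain alone.

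**Figure D1:**
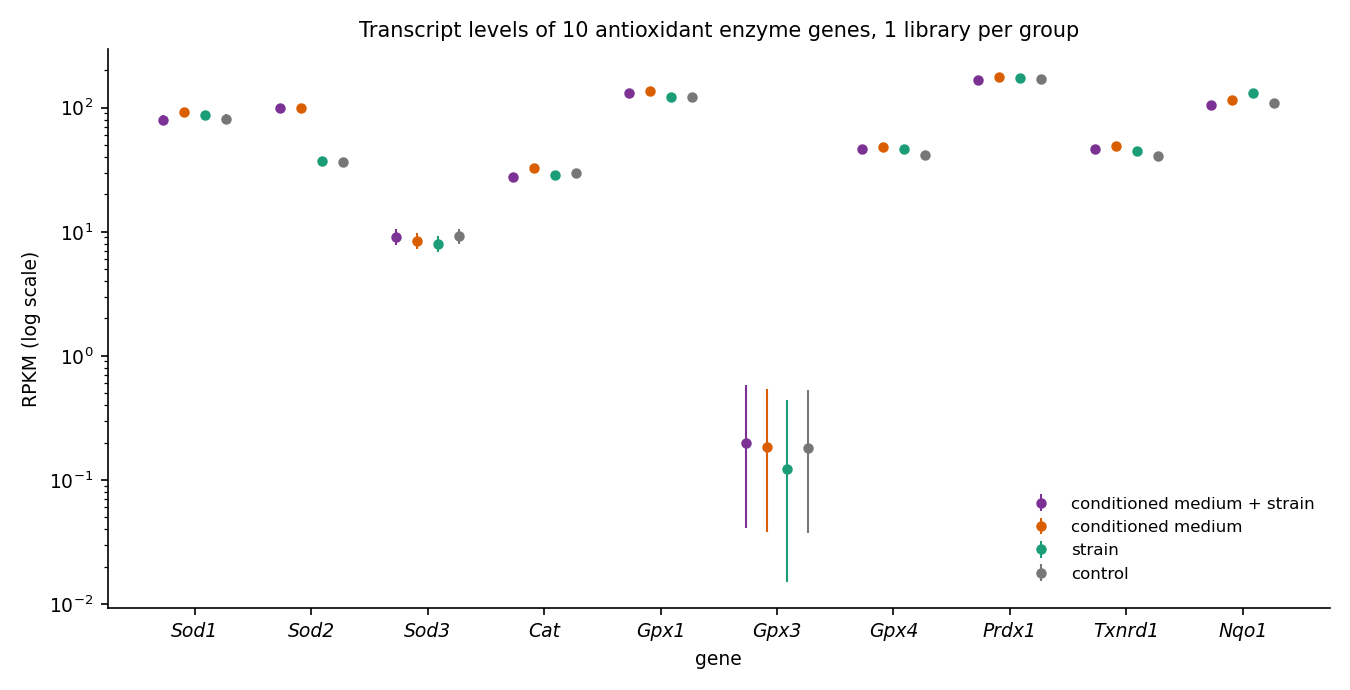
Transcript levels of the 10 genes in RPKM on a log axis, with 1 point per library and bars for the 95% Poisson interval of its count. The Sod2 points form an upper pair near 100 RPKM with conditioned medium and a lower pair near 37 RPKM without it; the points of the other genes lie close together, and Gpx3 lies at 0.123 to 0.198 RPKM.

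Sod1 had 80.2 RPKM (520 counts) with conditioned medium plus strain, 92.5 RPKM (639 counts) with conditioned medium, 86.8 RPKM (603 counts) with strain and 81.5 RPKM (581 counts) in the control. The highest and lowest of these differ by 1.15-fold. Sod1 was higher with conditioned medium than in the control, at 1.13-fold (1.01 to 1.27), and conditioned medium plus strain over conditioned medium gave 0.867-fold (0.771 to 0.975). Its other intervals included 1. Sod3, the secreted enzyme, was the least abundant dismutase, with 9.14 RPKM (187 counts) with conditioned medium plus strain, 8.40 RPKM (183 counts) with conditioned medium, 8.03 RPKM (176 counts) with strain and 9.20 RPKM (207 counts) in the control. None of its 5 intervals excluded 1, and at this depth a conditioned-medium over control fold anywhere from 0.743 to 1.12 lies within counting error.

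The order of the dismutases differed between media. The ratio of Sod2 to Sod1 RPKM was 1.24 (1.13 to 1.36) with conditioned medium plus strain, 1.08 (0.996 to 1.18) with conditioned medium, 0.432 (0.393 to 0.476) with strain and 0.444 (0.404 to 0.490) in the control. Without conditioned medium the cytosolic enzyme had the higher RPKM, and with conditioned medium the mitochondrial one reached or passed it. That order rests on gene-model lengths of 3824 bases for Sod2 and 648 bases for Sod1. The difference in the ratio between libraries does not depend on these lengths. Sod2 made up 52.6% of the summed dismutase RPKM with conditioned medium plus strain, 49.8% with conditioned medium, 28.3% with strain and 28.5% in the control. The sum itself was 188 RPKM with conditioned medium plus strain, 201 RPKM with conditioned medium, 132 RPKM with strain and 127 RPKM in the control.

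**Figure D2:**
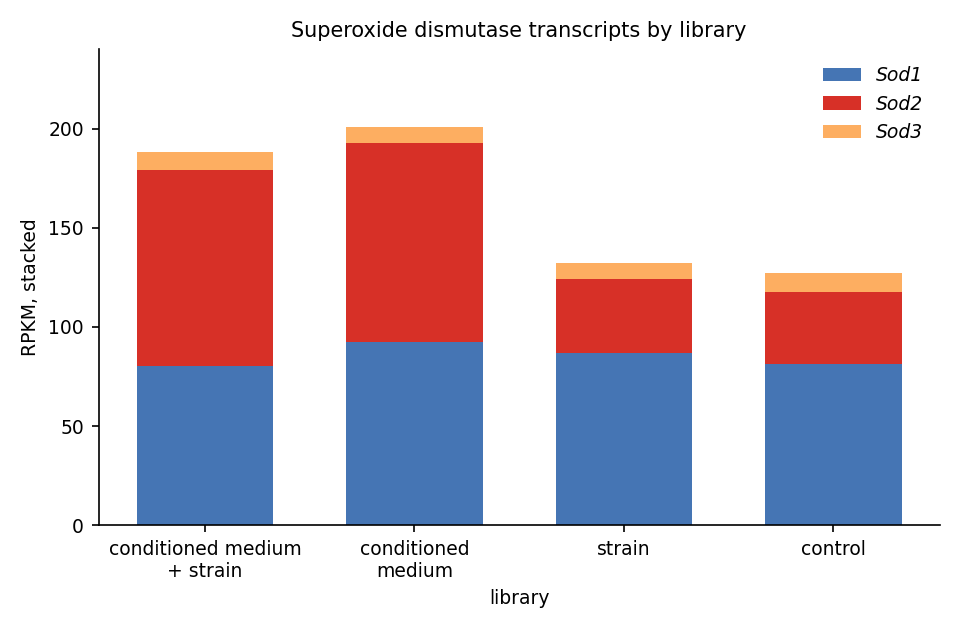
RPKM of Sod1, Sod2 and Sod3 stacked for each library, on an axis that starts at 0. The bars with conditioned medium are taller, at 188 and 201 RPKM, than those without it, at 132 and 127 RPKM, and most of the difference is the Sod2 segment.

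The peroxide-removing enzymes differed far less. Their summed level (Cat, Gpx1, Gpx3, Gpx4 and Prdx1) was 373 RPKM with conditioned medium plus strain, 396 RPKM with conditioned medium, 373 RPKM with strain and 365 RPKM in the control. Prdx1, the abundant cytosolic peroxiredoxin, had the highest level of the 10 genes in every library. It had 167 RPKM (2364 counts) with conditioned medium plus strain, 178 RPKM (2688 counts) with conditioned medium, 175 RPKM (2662 counts) with strain and 171 RPKM (2659 counts) in the control. Its range over the libraries, 1.07-fold, was the narrowest of the genes above the counting floor. Of its intervals, 1 excluded 1, that of conditioned medium plus strain over conditioned medium at 0.937 (0.886 to 0.990), and under each of the other scalings that interval included 1.

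Cat, the peroxisomal catalase, had 27.5 RPKM (702 counts) with conditioned medium plus strain, 32.6 RPKM (886 counts) with conditioned medium, 28.4 RPKM (778 counts) with strain and 29.8 RPKM (836 counts) in the control. The library with conditioned medium plus strain was lowest and that with conditioned medium highest, a fold of 0.844 (0.763 to 0.933). Against the control, Cat was at 0.923 (0.833 to 1.02) with conditioned medium plus strain, at 1.09 (an interval that included 1) with conditioned medium and at 0.954 (0.865 to 1.05) with strain.

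Gpx1, the cytosolic and mitochondrial glutathione peroxidase, was the second most abundant gene except in the strain library, where Nqo1 stood above it with an overlapping interval. It had 132 RPKM (1385 counts) with conditioned medium plus strain, 137 RPKM (1528 counts) with conditioned medium, 123 RPKM (1374 counts) with strain and 122 RPKM (1406 counts) in the control. The libraries with conditioned medium were the higher pair. The folds were 1.08 (1.00 to 1.17) for conditioned medium plus strain over control, 1.08 (1.00 to 1.16) for conditioned medium plus strain over strain and 1.12 (1.04 to 1.21) for conditioned medium over control, and all 3 intervals lay above 1, the first 2 by under 1%.

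Gpx4, which reduces lipid peroxides within membranes, had 46.6 RPKM (715 counts) with conditioned medium plus strain, 47.9 RPKM (784 counts) with conditioned medium, 46.9 RPKM (771 counts) with strain and 41.6 RPKM (702 counts) in the control. The control was the low library. Each treated library stood above it, at 1.12-fold (1.01 to 1.24) with conditioned medium plus strain, 1.15-fold (1.04 to 1.28) with conditioned medium and 1.13-fold (1.02 to 1.25) with strain. Among the treated libraries the Gpx4 intervals included 1. Gpx3, the secreted plasma peroxidase, had 3 counts with conditioned medium plus strain, 3 with conditioned medium, 2 with strain and 3 in the control. These lie at or under the floor of 3 counts, so no fold is given. The locus-wide count does not separate the cytosolic, mitochondrial and nuclear forms of Gpx4.

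Txnrd1, the cytosolic thioredoxin reductase that recycles the thioredoxin used by peroxiredoxins, had 46.5 RPKM (1870 counts) with conditioned medium plus strain, 49.6 RPKM (2124 counts) with conditioned medium, 44.5 RPKM (1919 counts) with strain and 41.1 RPKM (1815 counts) in the control. It too was lowest in the control. It was higher by 1.13-fold (1.06 to 1.21) with conditioned medium plus strain, by 1.21-fold (1.13 to 1.29) with conditioned medium and by 1.08-fold (1.02 to 1.16) with strain. Conditioned medium plus strain over conditioned medium gave 0.938 (0.881 to 0.998), an interval that included 1 under each of the other scalings.

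Nqo1, a quinone reductase and standard readout of the transcription factor NRF2, was highest under strain alone. It had 104 RPKM (1619 counts) with conditioned medium plus strain, 115 RPKM (1910 counts) with conditioned medium, 131 RPKM (2186 counts) with strain and 109 RPKM (1855 counts) in the control. Strain over control was 1.21 (1.14 to 1.29), while conditioned medium plus strain over conditioned medium was 0.903 (0.844 to 0.965). Conditioned medium plus strain over strain was 0.794 (0.744 to 0.847), the lowest Nqo1 fold. Conditioned medium plus strain differed from control by less than the counting error, at 0.959 (0.897 to 1.03).

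**Figure D3:**
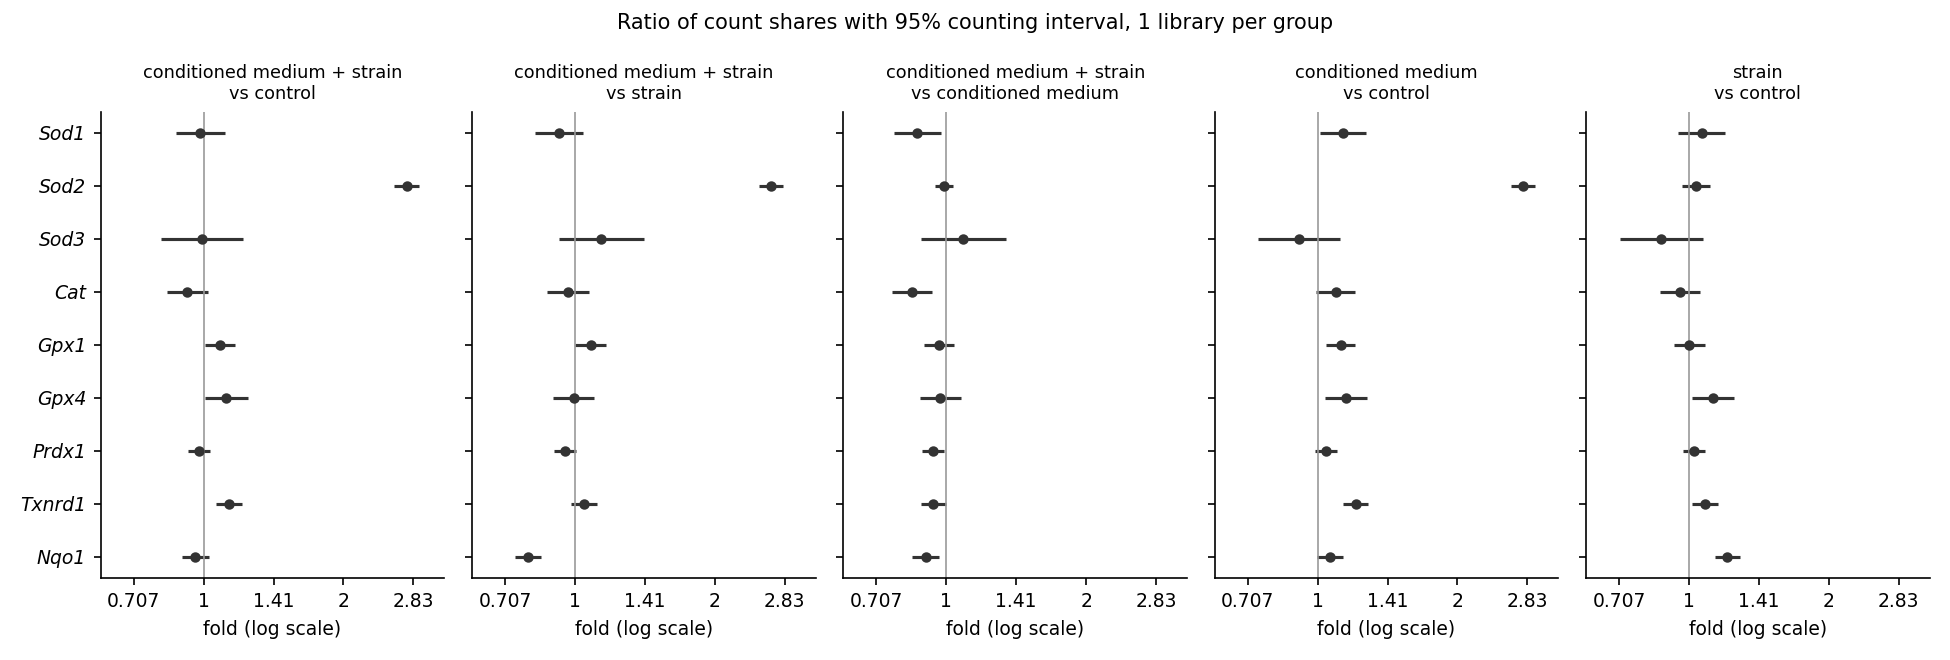
Folds of 9 of the genes (Gpx3 has too few counts) in the 5 comparisons, each point a ratio of count shares on a log axis with its 95% counting interval. Sod2 stands apart at 2.64 to 2.76 in the 3 comparisons that differ in conditioned medium, and every other point lies between 0.794 and 1.21.

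Set against all genes, a difference was called large where log2(RPKM + 1) differed by at least 0.5, about 1.4-fold, with at least 1 RPKM and 30 counts in the higher library. Gpx3 was under both minimums, so 9 of the 10 genes could be called. In conditioned medium plus strain over control, 1 of the 10 genes was higher by this rule, Sod2, against 2.83% of all genes tested, and 0 were lower against 3.38%. In conditioned medium plus strain over strain, Sod2 alone was higher against 2.32% of all genes, and 0 were lower against 3.3%. In conditioned medium over control, Sod2 alone was higher against 3.16%, and 0 were lower against 3.09%. With strain, none of the 10 passed this size: 0 were higher and 0 lower in conditioned medium plus strain over conditioned medium (0.4% and 0.556% of all genes), and 0 and 0 in strain over control (1.19% and 0.827%). Sod2 also passed 2-fold in each comparison of medium, and no other gene of the 10 did in either direction in any comparison. Over all genes, 0.655% were higher and 0.293% lower by 2-fold in conditioned medium plus strain over control, 0.46% and 0.304% in conditioned medium plus strain over strain, and 0.688% and 0.275% in conditioned medium over control. The shares were 0.0174% and 0.0869% in conditioned medium plus strain over conditioned medium, and 0.0776% and 0.0431% in strain over control.

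Differences of any size whose counting interval excluded 1 lay above 1 in the comparisons with the control. The shares of all genes are of those with at least 1 RPKM and 30 counts, which 9 of the 10 reached. In conditioned medium over control, 5 of the 10 were higher (Sod1, Sod2, Gpx1, Gpx4 and Txnrd1) and 0 lower, against 13.8% and 22.3% of all genes. Under each of the other scalings Cat, Prdx1 and Nqo1 were higher too, which makes 8 of the 10. Those scalings also raised the median log2 difference of all genes, by 0.02 to 0.04. The shares of all genes under them were not calculated, so the 8 have no background beside them. In conditioned medium plus strain over control, 4 were higher (Sod2, Gpx1, Gpx4 and Txnrd1) and 0 lower, against 11.2% and 26.5%. In conditioned medium plus strain over strain, Sod2 and Gpx1 were higher and Nqo1 lower, against 11.4% and 20.2%. In strain over control, Gpx4, Txnrd1 and Nqo1 were higher and 0 lower, against 9.8% and 16.4%. In conditioned medium plus strain over conditioned medium, 0 were higher and 5 lower (Sod1, Cat, Prdx1, Txnrd1 and Nqo1), against 3.56% and 10.6%. Under each of the other scalings 3 of these were lower, without Prdx1 and Txnrd1, again with no share of all genes calculated. Apart from Sod3 and Gpx3, each gene stood above at least 80.2% of the genes with 1 RPKM or more in every library. Resolution depends on the count, not on RPKM. Each of these genes had 520 or more counts per library, while all genes were admitted from 30 counts in the higher library. Small differences are therefore easier to resolve in them than in genes of few counts. Differences between cultures are not in the interval.

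The median log2 difference over the 10 genes was 0.01 for conditioned medium plus strain over control, where that over all genes was -0.06. It was 0.03 for conditioned medium plus strain over strain (all genes -0.04), -0.07 for conditioned medium plus strain over conditioned medium (all genes -0.03), 0.14 for conditioned medium over control (all genes -0.04) and 0.04 for strain over control (all genes -0.03). Together the 10 genes took 0.131% of the counts with conditioned medium plus strain, 0.139% with conditioned medium, 0.112% with strain and 0.105% in the control.

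**Figure D4:**
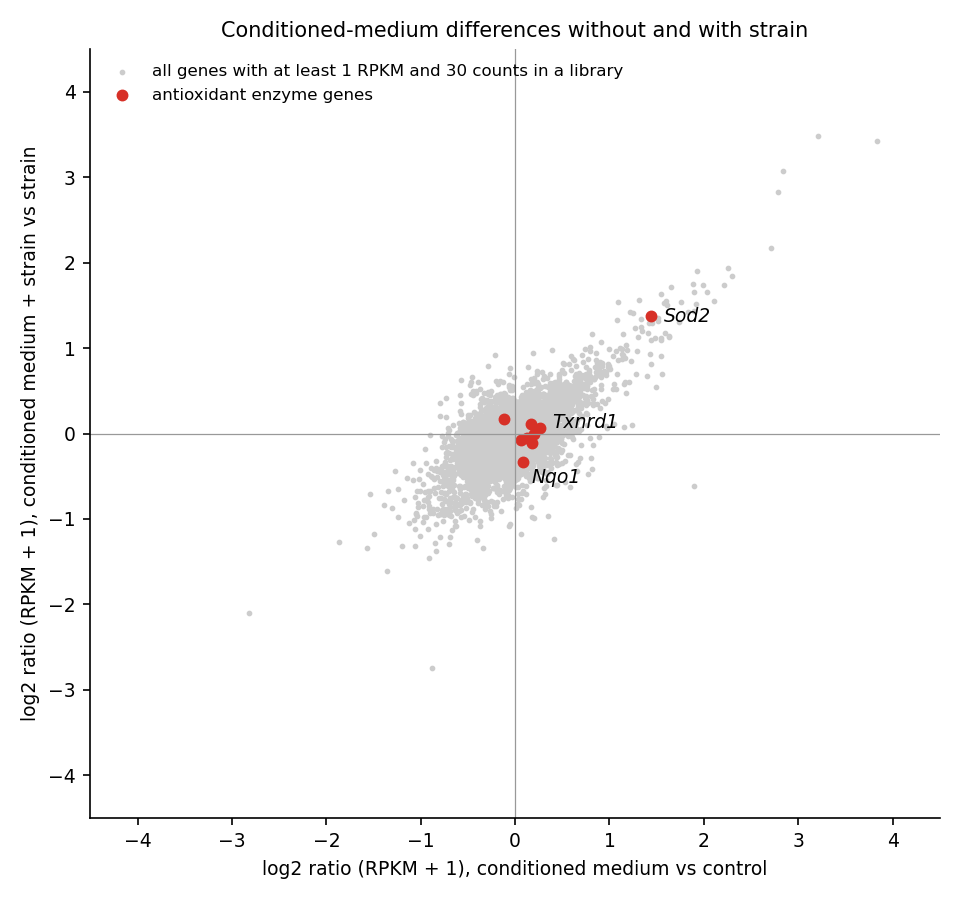
Each grey point is 1 of 11743 genes, placed by its log2 ratio of RPKM + 1 for conditioned medium over control (horizontal) and for conditioned medium plus strain over strain (vertical); the pairs share no library, and 9 of the antioxidant genes are in red. Sod2 lies far out on both axes, the other red points lie near the origin, and Nqo1 lies below it.

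Whether strain went with the same difference in both media was described by dividing the fold of strain in conditioned medium by the fold of strain without it. The same number is the fold of conditioned medium under strain divided by that without strain. For Sod2 it was 0.956 (0.879 to 1.04). Of the 9 genes with enough counts, 5 had an interval below 1 and 0 above 1, against 9.61% and 8.46% of 11743 genes. They were Nqo1 at 0.747 (0.682 to 0.818), Sod1 at 0.814 (0.692 to 0.958), Gpx4 at 0.862 (0.747 to 0.996), Txnrd1 at 0.865 (0.791 to 0.946) and Prdx1 at 0.912 (0.845 to 0.985). Cat at 0.884 (0.769 to 1.02), Gpx1 at 0.963 (0.868 to 1.07) and Sod3 at 1.25 (0.937 to 1.66) had intervals that included 1. The library with conditioned medium plus strain enters each of these ratios, so they are not separate observations.

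By level per length, the 10 genes kept much of their order. Prdx1 was highest, Gpx3 lowest and Sod3 next to lowest in every library. Sod2 was the 4th with conditioned medium, with and without strain, and the 7th with strain and in the control. Neighbours with overlapping Poisson intervals were Gpx4 and Txnrd1 in every library, Nqo1 and Sod2 with conditioned medium plus strain, Sod2 and Sod1 with conditioned medium, and Nqo1 and Gpx1 with strain.

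Few genes shared the profile of Sod2. Likeness was measured as the distance between profiles of log2(RPKM + 1), each centred over the 4 libraries, among 8627 genes with a mean of at least 5 RPKM. Within a distance of 0.25 of Sod2 lay 14 genes, and the nearest were Sbno2 (0.05), Phlda1 (0.09) and Pfkfb3 (0.10), the last encoding an enzyme that sets the level of an activator of glycolysis. Sbno2 had 41.6 RPKM with conditioned medium plus strain, 43.7 RPKM with conditioned medium, 15.7 RPKM with strain and 14.7 RPKM in the control, the same high and low pairs as Sod2. The flatter profiles of Nqo1 and Txnrd1 had 2616 and 3697 genes within the same distance. Nearest to Nqo1 were Zfp143, Ndufb5 and Rcc1, and nearest to Txnrd1 were Ruvbl2, Osr1 and Phf10.

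The wider redox network was described over 166 other genes in 12 lists, of which 132 or 133 had at least 1 RPKM and 30 counts in a comparison. The lists were chosen with earlier results of these data known. Their shares beside those of all genes are therefore a description and not a test. Past 1.4-fold, 13 were higher and 0 lower in conditioned medium plus strain over control, 7 higher and 2 lower in conditioned medium plus strain over strain, and 12 higher and 0 lower in conditioned medium over control. In conditioned medium plus strain over conditioned medium there were 0 in either direction, and in strain over control 1 higher and 0 lower. Of the measured redox genes, 9.85% were higher in conditioned medium plus strain over control, against 2.83% of all genes. Those higher in conditioned medium plus strain over strain made up 5.26%, against 2.32%, and those lower 1.5%, against 3.3%. In conditioned medium over control, 9.09% were higher, against 3.16%. The 0 lower in both comparisons with the control stand against 3.38% and 3.09% of all genes. With 1 added to each RPKM, a fold past 1.4 can fall short of the rule. In conditioned medium over control this held for Sesn1 and Msrb2, each 1.44-fold lower (1.28 to 1.62 and 1.09 to 1.93). It also held for Blvrb at 1.42-fold higher, Loxl1 at 1.44-fold and Nox4 at 1.42-fold (0.939 to 2.15). In the comparisons of strain, 0.4% of all genes were higher in conditioned medium plus strain over conditioned medium and 1.19% in strain over control. The median log2 difference of these genes lay between -0.04 and 0.04 in every comparison.

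The list of NRF2 target enzymes held 30 genes, among them Nqo1, Txnrd1 and Prdx1. By the size rule, 6 of 26 measured were higher in conditioned medium plus strain over control, against 2.83% of all genes. In conditioned medium plus strain over strain 3 of 26 were higher, against 2.32%, and in conditioned medium over control 5 of 27, against 3.16%. None of the NRF2 targets was lower by that size in these comparisons, against 3.38%, 3.3% and 3.09% of all genes. Smaller differences ran both ways, with 8 of 26, 11 of 26 and 5 of 27 below 0 on the log2 scale, in the same order. Ephx1 was lower in each, at 0.827-fold (0.788 to 0.868), 0.873-fold (0.831 to 0.917) and 0.805-fold (0.767 to 0.844). Hmox1, which breaks down heme, had 299 RPKM with conditioned medium plus strain, 338 RPKM with conditioned medium, 163 RPKM with strain and 153 RPKM in the control. Its fold was 2.21 for conditioned medium over control and 1.84 for conditioned medium plus strain over strain. Fth1, the ferritin heavy chain that stores iron and a gene with near-identical copies that could share its reads, stood 2.28-fold higher for conditioned medium over control and 1.97-fold higher for conditioned medium plus strain over strain. Srxn1, sulfiredoxin, which restores overoxidised peroxiredoxins such as Prdx1, was 1.89-fold higher for conditioned medium over control and 1.49-fold higher for conditioned medium plus strain over strain. Cbr3, a carbonyl reductase, was 1.63-fold higher for conditioned medium over control. For conditioned medium plus strain over strain it was 1.11-fold (0.885 to 1.40), and for strain over control 1.37-fold (1.07 to 1.76). Gclm, a subunit of the enzyme that starts glutathione synthesis, was 1.46-fold higher for conditioned medium over control. Blvrb and Slc6a9, named after their values were seen because they complete the count, passed in conditioned medium plus strain over control, at 1.49-fold and 1.55-fold. Nqo1 did not pass in any comparison.

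Among the other lists, Prdx5, a peroxiredoxin of mitochondria and peroxisomes, was 1.42-fold higher for conditioned medium plus strain over control, just past the size rule. Glrx, a glutaredoxin, was 1.65-fold higher for conditioned medium over control, and Maff, a partner protein of NRF2, 1.76-fold higher. Txnip, which binds thioredoxin, was the gene that passed in strain over control, at 1.72-fold (1.65 to 1.80), and was 1.53-fold higher (1.47 to 1.60) for conditioned medium over control. With the other treatment present its folds were near 1, at 0.953 (0.917 to 0.991) for conditioned medium plus strain over strain and 1.07 (1.03 to 1.12) for conditioned medium plus strain over conditioned medium. Gpx7, a peroxidase of the endoplasmic reticulum, had 7.74 RPKM with conditioned medium plus strain, 7.81 RPKM with conditioned medium, 13.7 RPKM with strain and 10.4 RPKM in the control. It was 1.77-fold lower (1.37 to 2.29) for conditioned medium plus strain over strain. Sesn1, a sestrin, was 1.60-fold lower (1.42 to 1.80) and Ggct, an enzyme of glutathione breakdown, 1.78-fold higher (1.19 to 2.69) in the same comparison.

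Some enzymes that make superoxide or peroxide were also among the genes with higher levels. Of 28 genes listed, 4 of 14 measured were higher by the size rule in conditioned medium plus strain over control, against 2.83% of all genes. In conditioned medium plus strain over strain 2 of 15 were, against 2.32%, and in conditioned medium over control 3 of 13, against 3.16%. By that size 0 were lower, against 3.38%, 3.3% and 3.09%. In the first of these comparisons 6 of the 14 lay below 1, such as Aox1 at 0.828 (0.755 to 0.909). Ero1l, which yields peroxide while forming disulfides in the endoplasmic reticulum, was 2.32-fold higher for conditioned medium over control and 2.11-fold higher for conditioned medium plus strain over strain. Xdh, xanthine dehydrogenase, was 1.82-fold higher and 1.83-fold higher in the same comparisons. Lox, which crosslinks collagen and releases peroxide, was 1.49-fold higher for conditioned medium over control, and its relative Loxl1 1.59-fold higher for conditioned medium plus strain over control. Both were also higher for strain over control, short of the size rule, Lox at 1.35-fold (1.31 to 1.40) and Loxl1 at 1.31-fold (1.16 to 1.48). Conditioned medium plus strain over strain gave Lox 1.11-fold (1.07 to 1.14) and Loxl1 1.22-fold (1.09 to 1.36). The peroxisome list had 22 of 24 genes measured and the list of selenoprotein synthesis factors 10 of 10, and the 11 measured of 13 other selenoproteins in the table made up a further list. None of these lists had a gene past 1.4-fold in any comparison. As 0.4% to 3.38% of all genes passed in a given direction and comparison, a count of 0 in lists this short is near the background.

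**Figure D5:**
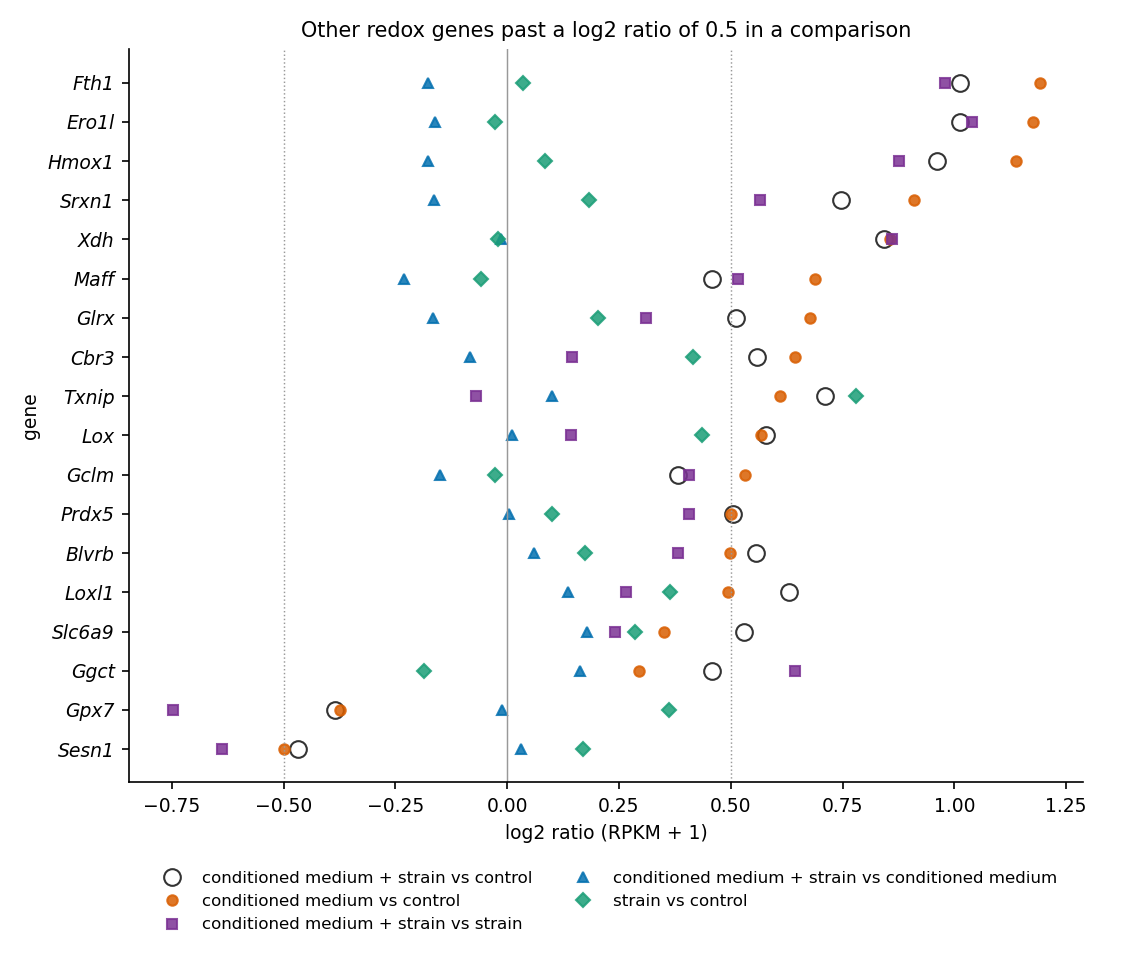
Log2 ratios of RPKM + 1 for the 18 other redox genes past the size rule in at least 1 comparison, with 1 symbol per comparison and dotted lines at -0.5 and 0.5. Fth1, Ero1l, Hmox1 and Xdh lie to the right in the comparisons of medium and near 0 in those of strain, Txnip lies to the right for strain over control, and Gpx7 and Sesn1 lie to the left for conditioned medium plus strain over strain.

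Some counts may be shared with neighbours. Prdx1 overlaps the opposite-strand transcript AV051173, which had 28 counts with conditioned medium plus strain, 45 with conditioned medium, 43 with strain and 27 in the control. Txnrd1 spans Eid3 (11 to 28 counts) and Gm38560 (4 to 11 counts), and the Gpx4 copies Gm7338 and Gpx4-ps had 1 to 9 counts. These are small beside 1815 or more counts of Txnrd1, 2364 or more of Prdx1 and 702 or more of Gpx4.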

How the data were processed

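Per the labels' protocols, total RNA was isolated with Trizol for directional sequencing libraries. Reads were aligned with HISAT2, per the submitters' processing notes, which name mm9. The counting tool and its settings for strand and multi-mapped reads were not given in the sources used here. For each gene the authors deposited a count and an RPKM per library, per the file headers. The deposited RPKM equalled count over length and library total within a relative 5.05e-06. Positions in the table are those of a later build: 28748 of 40033 genes matched by Entrez number (71.8%) had the chromosome and start of GRCm38.p6, as did 9 of the 10 genes described.

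Each group was 1 library, so no test was run and no p-value is given. Folds are ratios of count shares, with 95% intervals from the exact Clopper-Pearson interval of the first library's share of both counts. The Sod2 to Sod1 ratio has the same kind of interval, ratios of folds have Wald intervals on the log scale, and single levels have exact Poisson intervals. The size rule was an absolute difference of at least 0.5 in log2(RPKM + 1), which understates low genes, with at least 1 RPKM and 30 counts in the higher library. The text names all 10 genes, up to 4 genes past the rule per list and comparison, and the 3 nearest profiles of the 3 genes with the widest range. The genes and lists were chosen with earlier results of these data known. Alternatives were a pseudocount of 0.1, no minimum, a minimum of 5 RPKM, scaling by edgeR 4.0.16 TMM or DESeq2 1.42.0 size factors, and totals without the 100 most abundant genes. An additive model of both treatments, with 1 residual degree of freedom, was not run. Calculations used Python 3.11.15, pandas 2.3.3, SciPy 1.17.1 and R 4.3.3, and the fold and interval code was tested on simulated data.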

Additional observations from a re-analysis of the deposited data

Results flagged for a closer look

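For Nqo1 and Txnrd1 the difference between strained and unstrained cells ran in opposite directions in conditioned medium and without it, with each counting interval excluding 1. The Nqo1 fold of strain was 0.903 (0.844 to 0.965) in conditioned medium and 1.21 (1.14 to 1.29) without it, a ratio of 0.747 (0.682 to 0.818). The Txnrd1 fold of strain was 0.938 (0.881 to 0.998) in conditioned medium and 1.08 (1.02 to 1.16) without it, a ratio of 0.865 (0.791 to 0.946). The difference was not tested, since each group was 1 library, and the Txnrd1 interval in conditioned medium included 1 under each of the other scalings.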

How the results depend on the processing

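No paired analysis was possible because each group was 1 library. The counts of antioxidant genes past 1.4-fold were the same under every alternative run. Their median log2 difference kept its sign but not its size: over the alternatives it was 0.04 to 0.05 in conditioned medium plus strain over control (0.01 as reported), 0.03 to 0.06 over strain, -0.07 to -0.04 over conditioned medium, 0.15 to 0.19 in conditioned medium over control and 0.04 to 0.09 in strain over control. All 150 folds recalculated with other scalings lay within the reported counting intervals. Of them 17 crossed 1, all from folds whose reported interval included 1: Sod1, Sod3, Prdx1 and Nqo1 in conditioned medium plus strain over control, Gpx4 over strain and Sod2 over conditioned medium. The other scalings shifted the median of all genes by at most 0.06 on the log2 scale. The scalings decided whether a counting interval excluded 1 for Prdx1 in conditioned medium plus strain over conditioned medium, in conditioned medium over control and in strain over control, for Txnrd1 in conditioned medium plus strain over strain and over conditioned medium, and for Cat and Nqo1 in conditioned medium over control. With TMM scaling the ratio of strain folds of Cat had an interval of 0.757 to 1.00, just below 1. For the other redox genes, an alternative added after seeing the data, the number higher in conditioned medium over control was 12 as reported and 14 with each other scaling, and 2 genes rather than 0 were lower with a pseudocount of 0.1. In strain over control that pseudocount gave 2 higher rather than 1, and in conditioned medium plus strain over conditioned medium the count without a minimum was 1 higher rather than 0. Depth limits Gpx3, at 2 to 3 counts, and leaves Sod3, at 176 to 207 counts, with wide intervals.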
